A study of Homo sapiens with 4 samples.

Results

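The suppressors of cytokine signalling (SOCS) form a family of 8 human genes, SOCS1 to SOCS7 and CISH, and their mRNA was followed in THP-1 cells on 4 expression arrays. The members were every probe set, a short group of probes reading part of a transcript, that the platform annotation assigns to one of these genes. All 8 genes of 19775 with a probe set of their own were found, with 25 probe sets among them of 54675 on the array, and 0 further probe sets named a member together with another gene. THP-1 is an established line grown from a human acute monocytic leukaemia, and every array held that single line. One array held cells kept with platelet-like particles for 24 h and another for 12 h, and per the series design both had also received Pam3CSK4. The other arrays held cells given Pam3CSK4 alone and untreated resting cells. Pam3CSK4, a synthetic lipopeptide, is a ligand of the receptor pair TLR1 and TLR2. The numbers 25 and 13 stand in the titles of these arrays, but the source labels give 24 h and 12 h, which were used. The source cells of the particles and the length of the treatment with Pam3CSK4 alone are not given in the sources used here. With 1 array per group there is no replicate check on any difference below, no test was possible, and the number of arrays limits the precision.

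SOCS proteins end a cytokine signal. Cytokine receptors carry JAK kinases, which phosphorylate STAT transcription factors, and STATs switch on SOCS genes, so that the product shuts off the pathway that induced it. Each member binds phosphotyrosine through an SH2 domain and recruits a ubiquitin ligase through its C-terminal SOCS box, while SOCS1 and SOCS3 also block JAK directly through a kinase inhibitory region. In monocytes and macrophages SOCS1 and SOCS3 are known as inducible brakes on interferon, interleukin-6 and Toll-like receptor responses.

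RefSeq promoter sequences of assembly GRCh38.p14, 250 bases before to 50 after a start site, were at hand for 5 of the 8 members in 6 entries. These were CISH, SOCS1, SOCS3 (with more than 1 entry), SOCS4 and SOCS6. They were searched on both strands for TTCNNNGAA, the paired half-site that STAT dimers bind, and for GAAANNGAA, the core of the element bound by interferon-activated factors. Both are written in capitals below. Of the members with an entry, CISH, SOCS1 and SOCS3 (its upstream entry) are shown because they are known as cytokine-induced. No entry was at hand for SOCS2, SOCS5 or SOCS7.
CISH, chr3:50611725-50612024, minus strand: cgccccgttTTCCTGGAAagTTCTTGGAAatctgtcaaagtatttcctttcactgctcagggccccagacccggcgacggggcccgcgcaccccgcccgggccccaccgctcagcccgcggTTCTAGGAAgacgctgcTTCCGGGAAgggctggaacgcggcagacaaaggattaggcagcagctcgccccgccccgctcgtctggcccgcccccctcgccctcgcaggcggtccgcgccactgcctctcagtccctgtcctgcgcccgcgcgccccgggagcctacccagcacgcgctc
SOCS1, chr16:11256155-11256454, minus strand: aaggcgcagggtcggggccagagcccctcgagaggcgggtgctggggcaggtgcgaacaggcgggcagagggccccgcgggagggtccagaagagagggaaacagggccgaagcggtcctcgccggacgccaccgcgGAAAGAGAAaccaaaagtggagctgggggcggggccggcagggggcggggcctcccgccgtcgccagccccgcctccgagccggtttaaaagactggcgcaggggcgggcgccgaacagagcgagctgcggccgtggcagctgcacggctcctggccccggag
SOCS3, chr17:78360876-78361175, minus strand: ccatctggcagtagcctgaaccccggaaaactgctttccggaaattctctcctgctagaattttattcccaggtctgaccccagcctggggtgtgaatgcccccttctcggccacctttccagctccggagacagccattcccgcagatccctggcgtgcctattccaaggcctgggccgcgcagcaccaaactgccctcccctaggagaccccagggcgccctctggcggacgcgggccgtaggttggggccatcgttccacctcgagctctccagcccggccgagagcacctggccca
The CISH window holds 4 copies of TTCNNNGAA, which begin 241, 230, 129 and 112 bases before the start site and do not overlap. At least 4 copies were present in 0.0199% of 35116 promoter windows of the same length, and at least 1 in 7.66%. The SOCS1 window holds 1 copy of GAAANNGAA, 113 bases before the start, and 8.11% of all windows hold at least 1. Neither string of letters lies in the SOCS3 window shown, in that of its other entry, or in those of SOCS4 and SOCS6. Sequence outside these windows, including any other start site, was not searched. A match of letters is a description of the window and not a bound site.

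The deposited values are on the log2 scale after RMA, which forces the arrays to nearly the same distribution. A probe set was compared if it stood at 6.19 or above, the overall median, on 1 or more arrays, since no detection calls were used here. All 8 genes passed through at least 1 probe set, as did 17 of the 25 probe sets. RNA integrity was read from the control probe sets of GAPDH and ACTB. For GAPDH the 3' reading exceeded the 5' reading by 0.70 log2 on the 24 h array, 0.92 at 12 h, 0.59 with Pam3CSK4 and 2.16 on the resting array. For ACTB, the other such control, the gap was 2.90, 3.17, 2.91 and 3.41 in the same order, wide on every array and also widest on the resting one. The part of these gaps in the differences from resting cells was not tested. Of 12 monocyte markers 10 had a probe set of their own and 9 passed the filter, LYZ, TYROBP and FCER1G among them, while the Fc receptor gene FCGR1A did not reach the filter level on any array. The summed linear level took in all 10, FCGR1A included. It was 38550 on the 24 h array, 34397 at 12 h, 36349 with Pam3CSK4 and 21667 on the resting array. The 9 markers that passed did not move together. Between Pam3CSK4 and resting cells they ranged from -0.37 log2 (CST3) to 2.56 (CD36). At 12 h against Pam3CSK4 they ranged from -1.18 (CD14) to 0.33. In bulk RNA, fewer cells of a type and less RNA per cell cannot be told apart.

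When each gene was read from its brightest probe set, by mean, 1 of the 8 SOCS genes differed at least 2-fold between Pam3CSK4-treated and resting cells: SOCS2, which was lower. Across 13410 genes, 1.71% were at least 2-fold lower and 4.14% at least 2-fold higher. Of the 8 genes, 7 lay below 0 in that comparison, against 57.7% of all genes, and the median difference was -0.22 log2, against -0.05 over all genes. SOCS3 was among the 7 through its representative probe set, while 3 of its 4 probe sets lay above 0. Of the 17 family probe sets that passed the filter, 13 lay below 0, against 55.5% of all. Counted by probe sets, 1 of the 17 was at least 2-fold higher (SOCS3) and 1 lower (SOCS2), with 3.63% and 1.37% of 29193 probe sets as background. SOCS2 was also the member at least 2-fold higher with particles than with Pam3CSK4 alone, so that 1 of 8 genes was counted at 12 h, where 0.41% of all genes were higher and 0.35% lower, and 1 of 8 at 24 h, where 0.0298% were higher and 0.0% lower. Between 24 h and 12 h of co-culture 0 members differed 2-fold in either direction, beside 0.343% of genes higher and 0.224% lower. The median of the family was 0.02 at 12 h, 0.08 at 24 h and 0.00 between 24 h and 12 h, and over all genes it was -0.05, -0.01 and 0.04 in the same comparisons. The 3 comparisons with the Pam3CSK4 array share that array, so its own error enters each of them.

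**Figure D1:**
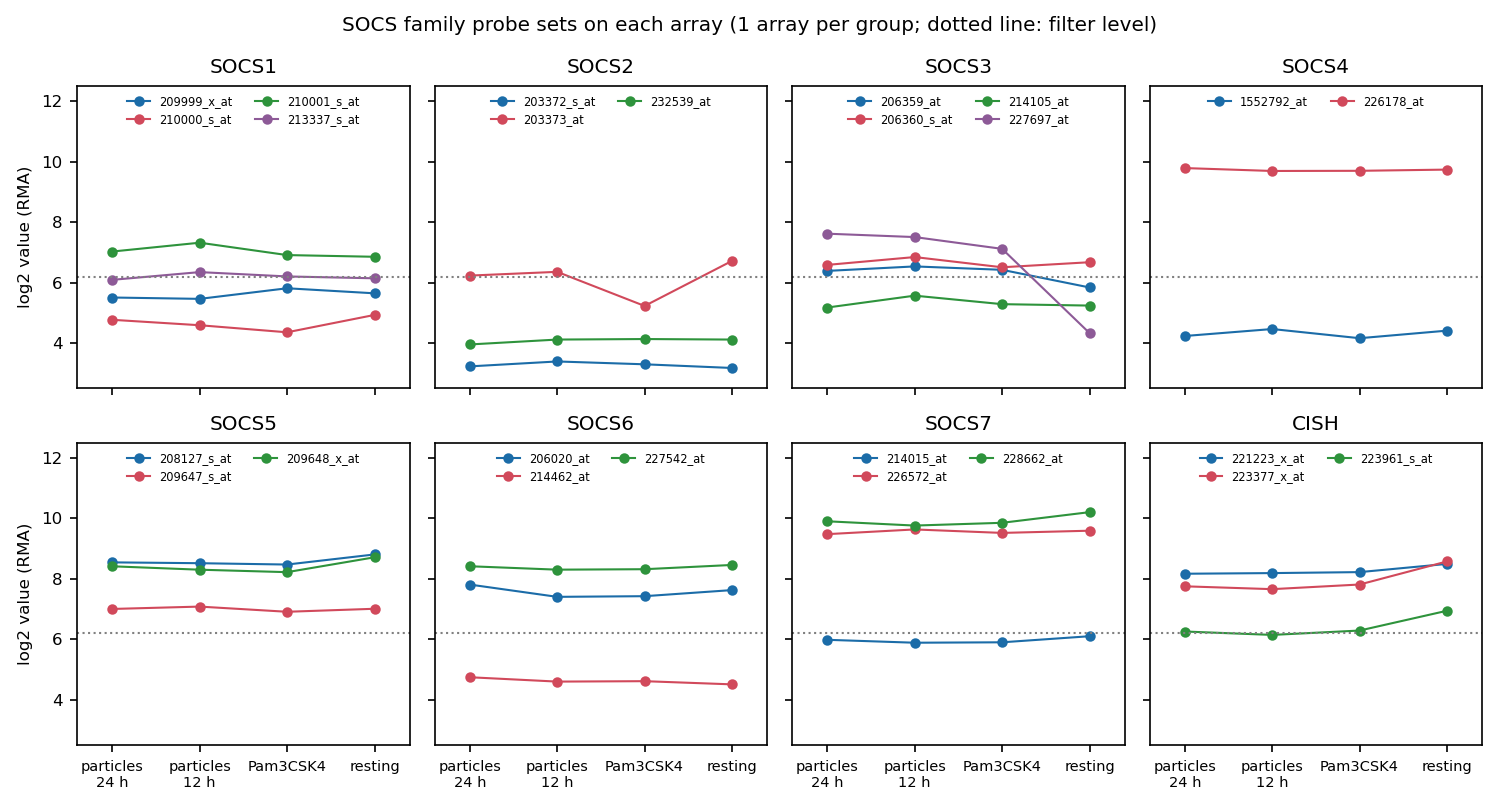
Log2 value (vertical axis) of each of the 25 SOCS family probe sets on the 24 h, 12 h, Pam3CSK4 and resting arrays (horizontal axis), 1 panel per gene, 1 point per array, with the filter level of 6.19 dotted. The SOCS3 probe set 227697_at stands above 7 on the 3 treated arrays and at 4.33 on the resting array, and the SOCS2 probe set 203373_at is lowest with Pam3CSK4 alone.

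SOCS3, which inhibits JAK kinases at receptors that use the gp130 chain, carried the widest difference of the family, on 1 of its 4 probe sets. Probe set 227697_at read 7.62 log2 at 24 h, 7.50 at 12 h, 7.11 with Pam3CSK4 and 4.33 on the resting array. The 3 treated arrays were thus high and the resting array stood apart, above 19.0% of the values there. The difference between Pam3CSK4 and resting cells was 2.79 log2, or 6.90-fold, rank 145 from the top of 29193 probe sets. The resting value lay under the filter level, so the size of the fold is uncertain, and the probe set passed the filter through the treated arrays.

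The other SOCS3 probe sets did not share that difference. Probe set 206359_at read 6.38 at 24 h, 6.53 at 12 h, 6.42 with Pam3CSK4 and 5.84 on the resting array, a difference of 0.58 between the last 2. Probe set 206360_s_at, the one of highest mean and therefore the one that represents the gene, read 6.58, 6.84, 6.50 and 6.67 in the same order, and its difference was -0.17. Probe set 214105_at stayed between 5.17 and 5.57 on all 4 arrays, under the filter level. The reading of SOCS3 thus depended on the probe set. Of the 4, 3 lay above 0, at 2.79, 0.58 and 0.05 log2, the last being 214105_at. The representative alone lay below 0, and 55.5% of all probe sets that passed the filter did. The 0.58 of 206359_at ranked 2139 from the top of 29193 probe sets, and its resting value was under the filter level. Over its 3 probe sets that passed, the Pam3CSK4 difference ranged over 2.95 log2. Of 6187 genes with several such probe sets, 12 had a range at least as wide, or 0.194%, and the median range was 0.25. The other 5 members with several probe sets had ranges from 0.01 for SOCS1 to 0.49 for CISH. The gaps of the GAPDH and ACTB controls, both widest on the resting array, move with this contrast, and their part was not tested.

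With particles, SOCS3 lay within 2-fold of its Pam3CSK4 level. At 12 h all 4 probe sets were higher, by 0.11 to 0.39 log2, with 214105_at, which was under the filter level, among them. At 24 h 2 of the 4 were higher, both of which passed the filter. They were led by 227697_at at 0.50, which ranked 128 from the top of 29193 probe sets. Among all probe sets that passed, 45.0% lay above 0 at 12 h and 48.1% at 24 h. No SOCS3 probe set differed 2-fold in either comparison. Between 24 h and 12 h, 227697_at differed by 0.11, and the other 3 had differences from -0.39 to -0.15.

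**Figure D2:**
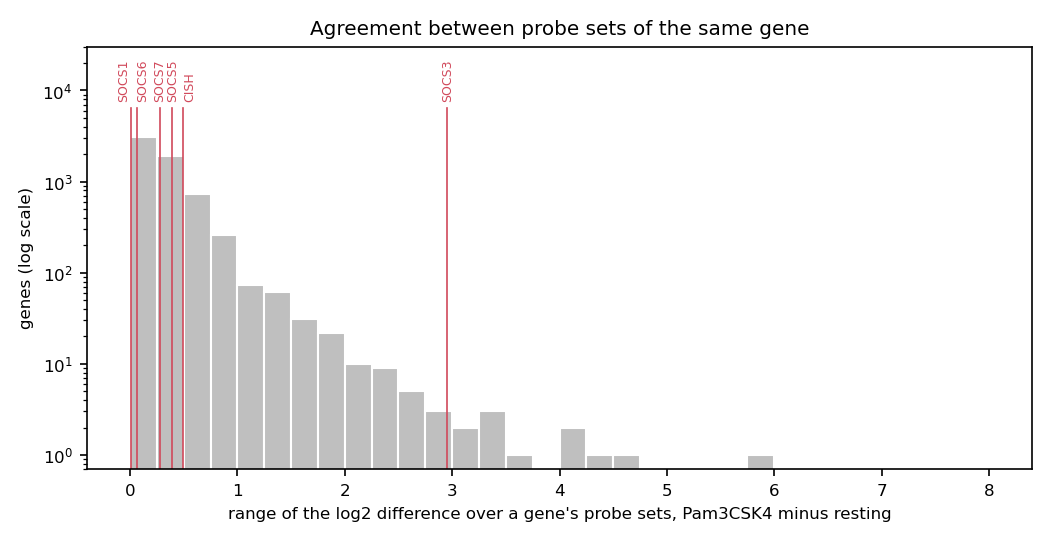
Number of genes (vertical axis, log scale) by the range, over the probe sets of a gene that passed the filter, of the Pam3CSK4 minus resting log2 difference (horizontal axis), for 6187 genes with several such probe sets. Red lines mark the 6 SOCS family genes among them, with SOCS3 at 2.95 and the other 5 at 0.49 or below.

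SOCS1, the main brake on interferon-gamma signalling and the gene whose window above holds GAAANNGAA, was nearly level between Pam3CSK4-treated and resting cells. Probe set 210001_s_at, its representative, read 7.03 at 24 h, 7.32 at 12 h, 6.91 with Pam3CSK4 and 6.85 on the resting array. The 12 h array was the highest and the difference from Pam3CSK4 there was 0.41 log2, rank 1500 of 29193 from the top. At 24 h it was 0.12, and between Pam3CSK4 and resting cells 0.06. The other probe set that passed, 213337_s_at, read 6.09, 6.34, 6.20 and 6.14 on the same arrays and was also highest at 12 h. Its difference from Pam3CSK4 was 0.14 at 12 h and -0.11 at 24 h. The remaining 2, 209999_x_at and 210000_s_at, stayed under the filter level on every array and differed in opposite directions from each other in the 3 comparisons that involve the Pam3CSK4 array. No SOCS1 probe set differed 2-fold in any comparison.

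CISH, a suppressor that acts on STAT5-activating receptors and is itself a classical STAT5 target, was lower in Pam3CSK4-treated than in resting cells on all 3 of its probe sets, where 55.5% of all probe sets were below 0. The window above holds 4 of the paired half-sites. Probe set 223377_x_at read 7.75 at 24 h, 7.65 at 12 h, 7.81 with Pam3CSK4 and 8.57 on the resting array, and its Pam3CSK4 difference was -0.76 log2. Probe set 223961_s_at read 6.25, 6.14, 6.29 and 6.94 in the same order, with a difference of -0.65. The representative, 221223_x_at, read 8.16, 8.19, 8.22 and 8.49, with a difference of -0.27. On each of the 3 probe sets the resting array was the highest and the 3 treated arrays spanned at most 0.15 log2, and no difference reached 2-fold. The first pair ranked 794 and 1147 from the bottom of 29193 probe sets. With particles, CISH stayed close to its Pam3CSK4 level: the differences ran from -0.15 to -0.03 at 12 h and from -0.06 to -0.03 at 24 h.

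SOCS2, a relative of CISH best known for limiting growth hormone signalling in mice, was the one gene of the family with a 2-fold difference on its representative probe set. Probe set 203373_at read 6.23 log2 at 24 h, 6.35 at 12 h, 5.23 with Pam3CSK4 and 6.72 on the resting array. The Pam3CSK4 array alone was low, and the 24 h and 12 h arrays lay between it and the resting array. Between Pam3CSK4 and resting cells the difference was -1.49, or 2.81-fold lower, rank 142 from the bottom of 29193 probe sets. With particles the gene was 2.19-fold higher at 12 h (1.13 log2, rank 72) and 2.01-fold higher at 24 h (1.004 log2, rank 12) than with Pam3CSK4 alone, and the co-culture arrays differed by -0.12 between 24 h and 12 h. Each of these 3 differences from or to Pam3CSK4 uses the same reading, which was under the filter level, so their sizes are uncertain.

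SOCS2 rested on 1 of its 3 probe sets. Probe set 203372_s_at read 3.23 at 24 h, 3.39 at 12 h, 3.30 with Pam3CSK4 and 3.17 on the resting array. Probe set 232539_at read 3.95, 4.11, 4.13 and 4.11 in the same order. Both were far under the filter level on every array, and neither showed the dip with Pam3CSK4. The probe set of the antisense gene SOCS2-AS1 was under that level too, at 3.67, 3.76, 3.73 and 4.20. Of 15 platelet and megakaryocyte markers 13 had a probe set of their own and 8 passed the filter. Those 8 had a median of 0.37 at 12 h and 0.13 at 24 h against Pam3CSK4. They ranged from -0.04 to 0.54 at 12 h and from -0.27 to 0.28 at 24 h. NRGN, the brightest of them on every array, was the lowest at 24 h. Over all 13, the summed linear level was 1635 at 24 h, 1906 at 12 h, 1676 with Pam3CSK4 and 2143 on the resting array. PF4, PPBP, TUBB1, GP6 and CLEC1B were under the filter level on all arrays. Of 12 erythroid markers 6 had a probe set of their own and 4 passed, with a median against Pam3CSK4 of 0.02 at 24 h and 0.28 at 12 h. At 24 h HBE1 differed by 2.05, HBB by 0.01, EPOR by 0.03 and AHSP by -0.16, and at 12 h the 4 ranged from 0.06 to 0.85, the last being HBE1. Over all 6, the summed linear level was 797 at 24 h, 782 at 12 h, 663 with Pam3CSK4 and 617 on the resting array. These 6 include KLF1 and ALAS2, which were under the filter level throughout. The part of particle RNA in the SOCS2 difference was not tested.

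**Figure D3:**
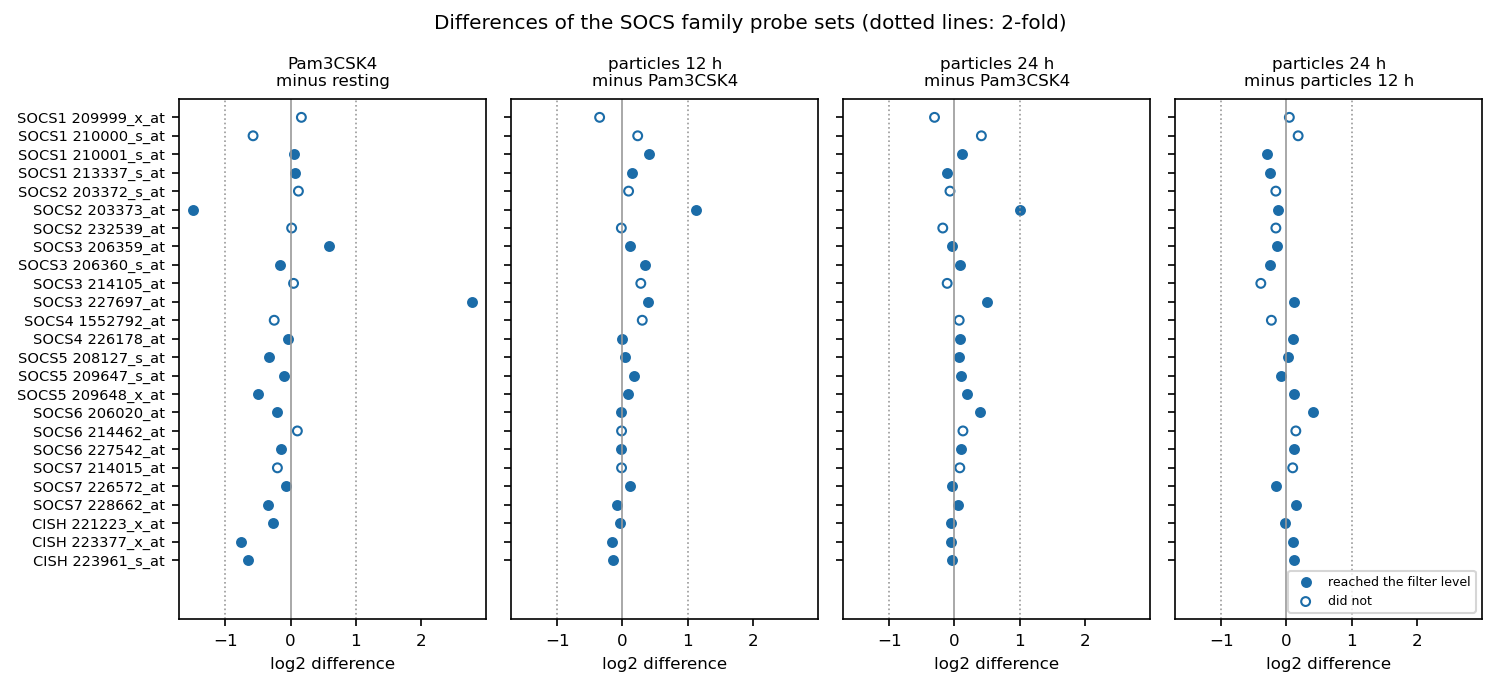
Log2 difference (horizontal axis) of each SOCS family probe set (rows) in the 4 comparisons named above the panels, with filled points for the 17 probe sets that reached the filter level and open points for the other 8. Dotted lines mark 2-fold, which is passed by SOCS2 203373_at in 3 comparisons and by SOCS3 227697_at for Pam3CSK4 minus resting.

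SOCS4 and SOCS5, related proteins that act on the epidermal growth factor receptor, differed little. Probe set 226178_at of SOCS4 read 9.79 at 24 h, 9.69 at 12 h, 9.70 with Pam3CSK4 and 9.74 on the resting array. Its range over the 4 arrays was 0.10 log2, the smallest of any probe set of the family that passed the filter. The other SOCS4 probe set, 1552792_at, was under the filter level on every array. It differed by -0.25 between Pam3CSK4 and resting cells, and by 0.30 at 12 h and 0.07 at 24 h from Pam3CSK4. Between 24 h and 12 h it differed by -0.23. SOCS5 was lower with Pam3CSK4 than in resting cells on all 3 of its probe sets, where 55.5% of all probe sets were below 0, with differences from -0.49 to -0.10 log2. With particles for 12 h all 3 were above their Pam3CSK4 values, with differences between 0.04 and 0.17, and 45.0% of all probe sets were above 0. After 24 h all 3 were above them again, with differences between 0.07 and 0.19, beside 48.1% of all probe sets. The SOCS5 probe set with the widest difference, 209648_x_at, read 8.41 at 24 h, 8.30 at 12 h, 8.22 with Pam3CSK4 and 8.71 on the resting array, so that the resting array was the highest and the Pam3CSK4 array the lowest.

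SOCS6 and SOCS7, larger members that bind receptor tyrosine kinases or insulin receptor substrates, showed small differences too. SOCS6 had differences of -0.02 to -0.01 log2 from Pam3CSK4 at 12 h on its 3 probe sets. At 24 h all 3 were above their Pam3CSK4 level. Of these 3, 214462_at was under the filter level on every array. Among all probe sets that passed the filter, 54.8% were below 0 at 12 h and 51.6% at 24 h. SOCS6 probe set 206020_at read 7.81 at 24 h, 7.40 at 12 h, 7.42 with Pam3CSK4 and 7.62 on the resting array. The 24 h array was the highest, and the difference of 0.38 from Pam3CSK4 ranked 378 from the top of 29193 probe sets. SOCS6 probe set 227542_at differed by 0.10 at 24 h. SOCS7 was lower with Pam3CSK4 than in resting cells on all 3 probe sets, with differences from -0.35 to -0.07 log2. Of these 3, 214015_at was under the filter level on every array. Among all probe sets that passed the filter, 55.5% were below 0. The SOCS7 representative, 228662_at, read 9.90, 9.76, 9.85 and 10.20 on the 24 h, 12 h, Pam3CSK4 and resting arrays, with the resting array highest. With particles its probe sets lay no further than 0.11 log2 from their Pam3CSK4 values.

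Of the 8 genes, SOCS2 alone had a representative probe set that spanned at least 1 log2 over the arrays, and the 3 genes closest to it in pattern were sought among 13409 others by the Euclidean distance of the 4 centred log2 values. They were S100P, a calcium-binding protein, NUPR1, a stress-induced chromatin protein, and TREM2, a lipid receptor of macrophages, at distances of 0.52 to 0.53. TREM2 read 10.98 at 24 h, 11.55 at 12 h, 10.61 with Pam3CSK4 and 12.12 on the resting array, with the same order of arrays as SOCS2. For SOCS3 probe set 227697_at, taken after its values were seen, the closest were CYTIP, an adhesion regulator of leukocytes, CYP1B1, a cytochrome P450, and the interferon-induced IFIT1, at 0.21 to 0.24. IFIT1 read 8.99, 9.20, 8.58 and 5.78 in the same order of arrays. With 4 arrays, many genes can share a pattern closely, and these distances are descriptions.

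Receptors and ligands act upstream of the SOCS proteins, and some differed widely between Pam3CSK4-treated and resting cells. Of 30 listed receptors 24 passed the filter, 9 were at least 2-fold higher and 1 lower, where 4.14% and 1.71% of all genes were, and their median difference was 0.76 log2, against -0.05 over all genes. The interleukin-10 receptor chain IL10RA differed by 3.39, the interleukin-27 receptor chain IL27RA by 1.99, the interleukin-7 receptor IL7R by 1.66 and the prolactin receptor PRLR by -1.84. IL10RA read 11.16 at 24 h, 11.84 at 12 h, 11.25 with Pam3CSK4 and 7.85 on the resting array. Of 25 ligands 10 passed, and EBI3, a subunit of interleukin-27 that read 11.85 with Pam3CSK4 and 5.67 in resting cells, and IL23A, with a difference of 1.41, were at least 2-fold higher in the same comparison. No listed receptor or ligand that passed differed 2-fold between either co-culture and Pam3CSK4. Of all genes, 0.41% were higher and 0.35% lower at 12 h, and 0.0298% and 0.0% at 24 h.

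The kinases and transcription factors carry the signal from the receptors to the SOCS genes. Of the JAK kinases 3 of 4 passed the filter, JAK1, JAK2 and TYK2, and none differed 2-fold in any of the 4 comparisons. With shares of all genes of at most 4.14% higher and 1.71% lower, a count of 0 of 3 says little. The differences were 0.28, 0.26 and 0.62 for JAK2, JAK1 and TYK2 between Pam3CSK4 and resting cells. Of 7 STAT genes 5 were analysed here, and all 5 were above 0 in that comparison, by 0.03 to 0.75. Of all genes, 57.7% were below 0 there. STAT4, which carries interleukin-12 signals, read 6.54 at 24 h, 7.84 at 12 h, 6.56 with Pam3CSK4 and 5.99 on the resting array. It was 2.43-fold higher at 12 h than with Pam3CSK4 and 2.46-fold lower at 24 h than at 12 h, so the 12 h array alone was high. That was 1 of 5 STAT genes in each comparison, beside 0.41% and 0.224% of all genes. STAT5A, an activator of CISH, was higher by 0.57 with Pam3CSK4 than in resting cells and STAT5B by 0.03, in the comparison in which CISH was lower.

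Among the other brakes of the pathway, 2 of 12 that passed were at least 2-fold higher with Pam3CSK4 than in resting cells, where 4.14% of all genes were: PTPRC, the CD45 phosphatase, by 1.10 log2 and USP18, which limits interferon receptor signalling, by 1.05. None of the 12 differed 2-fold with particles. Few genes did at all, 0.41% higher and 0.35% lower at 12 h and 0.0298% and 0.0% at 24 h. A count of 0 thus says little about this list. The ubiquitin ligase partners of the SOCS box (ELOB, ELOC, CUL5, RNF7, CUL2 and RBX1) all passed, and 0 of 6 differed 2-fold in any comparison, with CUL2 at 0.71 as the widest. Over all genes the shares were at most 4.14% higher and 1.71% lower in any comparison, so 0 of 6 says little. Of the clients other than JAK, 14 of 15 passed and KIT, the stem cell factor receptor that SOCS6 is known to target, was 3.99-fold lower with Pam3CSK4 and 2.11-fold lower at 24 h than at 12 h. That was 1 of 14 in each comparison, beside 1.71% and 0.224% of all genes. The 24 h value of KIT, 6.15, was under the filter level. Of 9 regulators that act on SOCS genes or on STAT responses, 4 were at least 2-fold higher with Pam3CSK4, against the same 4.14% of all genes. These were BCL6, a repressor that shares STAT sites, by 2.45, the ligand-activated factor AHR by 2.26, the interferon-signal factor IRF9 by 1.95 and KLF4 by 1.59. The 2 KLF4 probe sets that passed differed by 0.74 and 1.59, so KLF4 was counted through its brightest probe set. Those of BCL6 differed by 1.12 and 2.45. At 12 h the repressor GFI1, 1 of the 9, was 2.31-fold lower than with Pam3CSK4, where 0.35% of all genes were lower. At 24 h 0 genes of the 8 pathway lists beside the family differed 2-fold from Pam3CSK4. SOCS2 stood among the 4 genes of 13410 counted there.

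**Figure D4:**
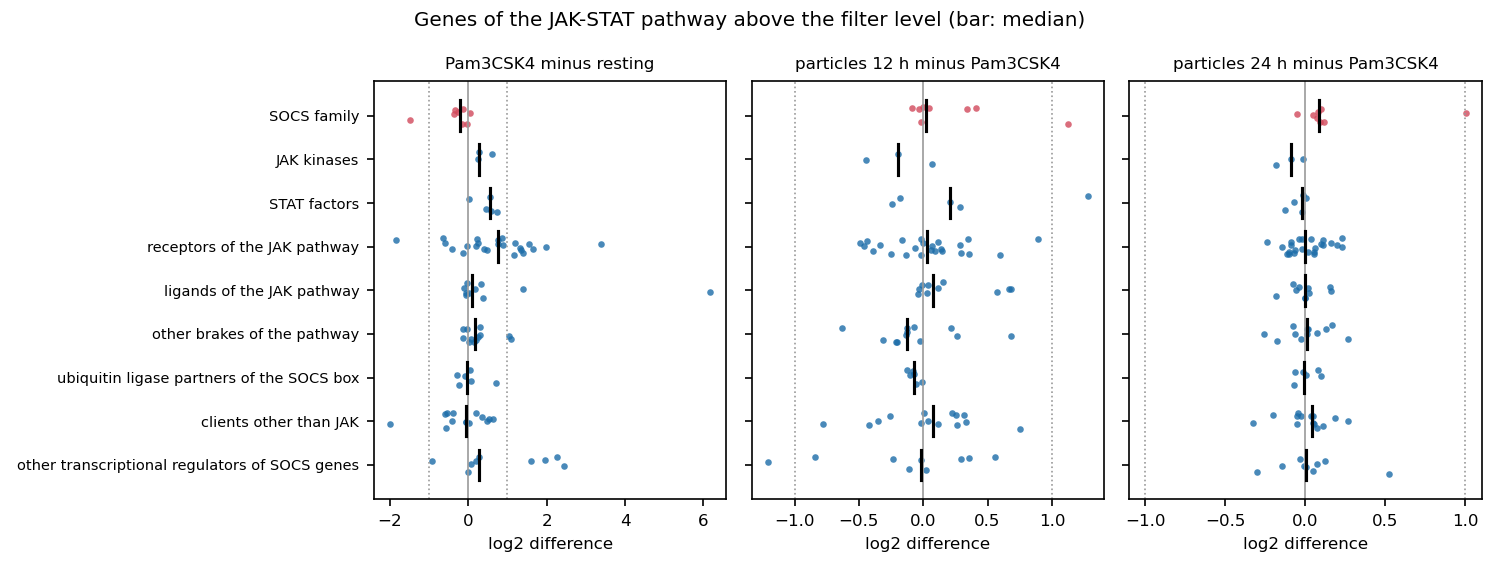
Log2 difference (horizontal axis, scaled per panel) of each gene that passed the filter in the SOCS family (red) and in 8 further lists of the pathway (blue) for Pam3CSK4 minus resting, particles 12 h minus Pam3CSK4 and particles 24 h minus Pam3CSK4, with a black bar at the median of each list and dotted lines at 2-fold. In the first panel the receptors have a median of 0.76 and the SOCS family one of -0.22, and in the last panel SOCS2 is the gene past the 2-fold line.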

How the data were processed

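Total RNA of THP-1 cells was labelled with biotin and hybridised to 4 arrays, per the labels' protocols. The deposited values are log2 values made with RMA in affy 1.28.1, per the submitters' processing notes, and the sorted columns differed by at most 0.11 log2. The array table names no genome build.

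Arrays were grouped by their source labels. Gene names came from the platform annotation, and the gene identifiers of all 8 members matched RefSeq. For each gene the probe set with the highest mean stood for it, among those naming it alone. The filter was 6.19 log2, the overall median, on 1 array or more, and the threshold was 2-fold. Members, gene lists, motifs and the rule for named genes (all members, the 3 nearest patterns of a member spanning 1 log2, and at most 4 members at 2-fold per list and comparison) were chosen with earlier results of these data known. No p-value was computed. Alternatives changed the filter, gene value, threshold and normalization (cyclic loess, limma 3.58.1, R 4.3.3, 3 iterations). Python 3.11.15, numpy 2.4.6, pandas 2.3.3 and matplotlib 3.10.9 were used, and the counting was tested on simulated data.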

Additional observations from a re-analysis of the deposited data

Results flagged for a closer look

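SOCS1 probe set 213337_s_at was on opposite sides of its Pam3CSK4 value at the co-culture times, at -0.11 log2 at 24 h and 0.14 at 12 h, with 1 array each. This difference between the times was not tested.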

How the results depend on the processing

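The count of SOCS family genes at least 2-fold apart was 1 for Pam3CSK4 against resting cells, 1 for 12 h and 1 for 24 h against Pam3CSK4, and 0 for 24 h against 12 h. It was 0 in the first 3 with a filter at the 75th percentile and with probe sets averaged, settings under which SOCS2 did not pass, and 0 with a 3-fold threshold. For Pam3CSK4 against resting cells it was 2 without probe sets ending in _x_at or _s_at, which made 227697_at the reading of SOCS3, and 2 with the probe set of widest range per gene, an alternative chosen after seeing the data. Members that entered the count numbered 5 in the first of these settings and 6 in the second. They numbered 5 with the 75th percentile filter, 6 averaged and 8 as reported. SOCS3 for Pam3CSK4 against resting cells was -0.17 as reported, 0.81 averaged and 2.79 in both settings that gave 2. In the same comparison CISH was -0.56 averaged. Counts over all genes moved by more than 1.5 times with the threshold: at 1.5-fold and 3-fold, 1017 and 310 genes were higher and 790 and 67 lower with Pam3CSK4 than in resting cells, 255 and 12 higher and 383 and 6 lower at 12 h, 22 and 2 higher at 24 h, and 421 and 5 higher and 185 and 5 lower for 24 h against 12 h. At 24 h, 1 gene was lower than with Pam3CSK4 at 1.5-fold. Averaging gave 26 lower genes at 12 h, 1 higher at 24 h and 21 higher for 24 h against 12 h, and the 75th percentile filter gave 1 higher at 24 h. No filter and cyclic loess kept each family count. No paired analysis was possible because each group has 1 array, and for that reason no replicate could be left out. Without detection calls, signal over background limits every value under the filter level.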
